A study of Mus musculus with 6 samples.

Results

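The genes described here are 10 markers of hepatic stellate cells and fibroblasts, *Dcn*, *Lum*, *Lrat*, *Reln*, *Des*, *Pdgfra*, *Pdgfrb*, *Hand2*, *Lhx2* and *Rgs5*, of 19938 genes measured on liver arrays. They were chosen by name, with earlier results of these data known. Each is the gene of a probe set whose array annotation gives that 1 symbol, with the brightest probe set taken where a gene has several. All 10 were found, each with a single probe set. The livers came from 6 mice, all female in the labels, with 1 Affymetrix array per mouse. Mice B253, B304 and B305 are Lkb1KOlivad, and B256, B267 and B302 are controls. According to the methods, the mutants are *Lkb1* fl/fl mice on an FVB/N background that carry TTR-CreTam, a tamoxifen-inducible Cre recombinase driven by the hepatocyte-specific transthyretin promoter, and the controls are their Cre-negative *Lkb1* fl/fl littermates. The floxed alleles are therefore common to both groups. The methods give 2 injections of 1.5 mg of tamoxifen at 8 to 12 weeks of age. For most studies they state males and an interval of 15 days, and they name no interval for the arrays of these females. The fasted state of these livers comes from the paper and is not in the labels. Cre is directed to hepatocytes, so the cells known to express the 10 markers are not the ones in which this model is made to delete *Lkb1*.

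Hepatic stellate cells lie between the hepatocytes and the sinusoidal endothelium. In healthy liver they store most of the vitamin A of the body as retinyl esters in lipid droplets. When the liver is injured they lose these droplets, become contractile myofibroblasts and secrete collagen. Portal fibroblasts and the pericytes and smooth muscle cells of the vessels share part of their genes, so that *Dcn*, *Lum*, *Pdgfra*, *Pdgfrb*, *Des* and *Rgs5* are not restricted to stellate cells. In whole liver RNA, fewer cells of a type and less RNA per cell cannot be told apart.

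*Stk11*, which encodes the deleted kinase Lkb1, had log2 signals of 6.52, 6.42 and 6.48 in the mutants B253, B304 and B305, against 8.24, 8.13 and 7.96 in controls B256, B267 and B302. The groups did not overlap, and the log2 fold change was -1.64 (standard error 0.12, adjusted p = 0.00705 from limma). It was the 1 gene with an adjusted p under 0.05, which is 0.00502% of the genes tested, and with 1 mouse fewer its adjusted p was above that threshold (0.0501 to 0.139) unless the mouse was control B302. The median signal of an array was 5.03 to 5.08. The hepatocyte marker *Alb* had signals of 12.48 to 12.77 in the mutant livers and 12.42 to 12.86 in the controls, while the biliary keratin *Krt19* lay between 4.31 and 4.73 over the 6 livers.

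None of the 10 markers passed the threshold over all genes, since every adjusted p from limma was 0.9997. Their log2 differences, mutant minus control, had a median of -0.17, beside 0.00 for all genes, which was -0.10 without mutant B304 and -0.28 without control B302. The difference was below 0 for 8 of the 10 markers, where 48.4% of all genes were below 0, and below -0.2 for 5 (*Rgs5*, *Lrat*, *Lum*, *Dcn* and *Reln*), where 8.26% of all genes were. At an unadjusted p under 0.05, 2 markers (*Lrat* and *Rgs5*) were lower and 0 higher, beside 1.51% of all genes lower and 1.52% higher, together 3.03%. All mutants lay below all controls for 1 marker, *Lrat*, beside 3.7% of all genes, and above them for 0, beside 3.46%. For 8 of the 10 the 95% interval of the difference included 0, and its half-width ran from 0.26 to 0.52. The difference exceeded the pooled SD of the groups for 5 markers, a count for which the share of all genes was not computed. The counts are not independent of each other, since all 10 genes were measured in the same 6 livers. Because the markers were chosen with earlier results of these data known, the shares of all genes are no test of the list.

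**Figure D1:**
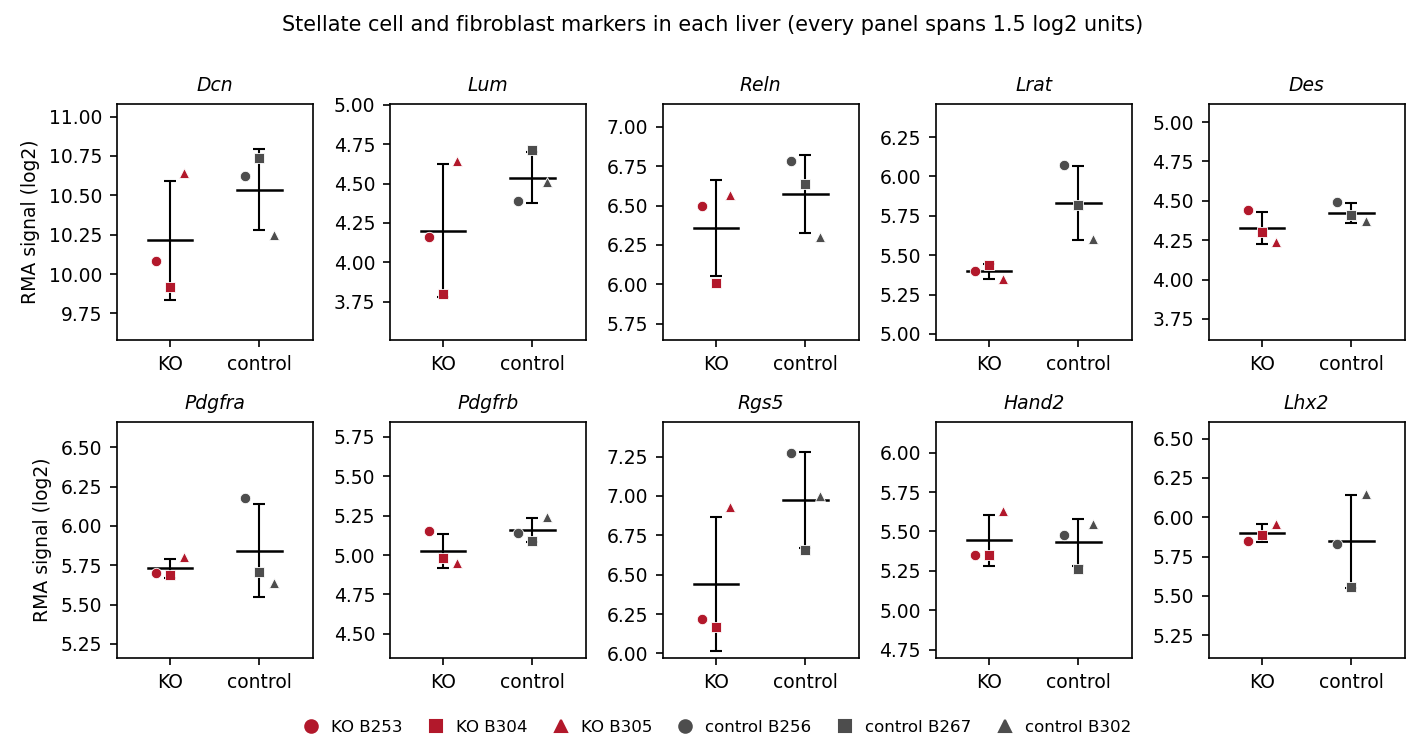
RMA signal (log2) of the 10 markers in each liver, Lkb1KOlivad (KO, red) left of control (gray), with 1 symbol per mouse and a black bar and line for each group's mean and SD. Every panel spans the same range. The mutant values of *Lrat* lie between 5.35 and 5.44, below the controls at 5.60 to 6.07, and in the other 9 panels the groups overlap.

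*Lrat* encodes lecithin retinol acyltransferase, the enzyme that esterifies retinol for storage in stellate cells. Its log2 signal was 5.40, 5.44 and 5.35 in mutants B253, B304 and B305, against 6.07, 5.82 and 5.60 in controls B256, B267 and B302. The mutant livers lay close together (5.40 ± 0.041, SD, n = 3) and the control livers further apart (5.83 ± 0.23, SD, n = 3). The log2 difference was -0.43 (standard error 0.14, 95% interval -0.75 to -0.12), a fold of 0.741, and the unadjusted limma p was 0.0127. In the exact permutation test (two-sided) p was 0.1, the lowest value possible with 3 mice in each group. *Lrat* ranked 128 by p among the 19938 genes. The difference stayed between -0.55 and -0.31 when any 1 mouse was left out.

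*Rgs5* encodes a regulator that speeds up the inactivation of G protein signals and is best known from pericytes. Its log2 signals were 6.22, 6.17 and 6.93 in mutants B253, B304 and B305, against 7.27, 6.66 and 7.00 in controls B256, B267 and B302. Mutants B253 and B304 lay below all controls, and mutant B305 lay within the control range. The log2 difference of -0.54 (standard error 0.23, 95% interval -1.06 to -0.01) had an unadjusted limma p of 0.0456 and a two-sided exact permutation p of 0.2. Of the 10 markers it had the largest difference and the widest range over the 6 livers, 1.10. The difference was -0.78 without mutant B305, -0.43 without mutant B253, -0.40 without mutant B304 and -0.39 without control B256. The unadjusted limma p was above 0.05 without mutant B253 (0.14), mutant B304 (0.161), control B256 (0.15) or control B302 (0.0887).

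The promoters of *Lrat* and *Rgs5*, the markers with an unadjusted p under 0.05, are shown with the E-box, the core that basic helix-loop-helix factors such as Hand2 bind, in capitals. The sequences run 5′ to 3′ in the direction of the gene, from 250 bases before to 50 after the annotated start (RefSeq, GRCm38.p6), at chr3:82903925-82904224, minus strand, for *Lrat* and chr1:169655251-169655550, plus strand, for *Rgs5*.
Lrat: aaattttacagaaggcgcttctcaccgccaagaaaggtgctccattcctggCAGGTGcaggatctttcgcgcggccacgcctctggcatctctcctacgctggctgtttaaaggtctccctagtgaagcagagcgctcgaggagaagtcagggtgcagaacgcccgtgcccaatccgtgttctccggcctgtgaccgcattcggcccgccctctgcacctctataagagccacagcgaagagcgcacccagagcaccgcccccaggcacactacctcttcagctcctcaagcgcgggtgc
Rgs5: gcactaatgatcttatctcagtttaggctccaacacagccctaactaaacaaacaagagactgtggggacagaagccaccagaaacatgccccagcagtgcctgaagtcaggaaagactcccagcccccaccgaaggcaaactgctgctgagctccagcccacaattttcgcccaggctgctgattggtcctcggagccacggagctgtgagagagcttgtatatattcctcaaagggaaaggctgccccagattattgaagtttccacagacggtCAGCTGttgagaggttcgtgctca
The E-box, CANNTG on either strand, was found in the promoters of all 7 markers with an entry among the 32851 promoters searched, beside 72.3% of these promoters. The variant CATCTG was found in those of *Hand2*, *Lhx2* and *Pdgfra*, beside 17.2% of the promoters, and TAATTA, the core bound by many homeodomain proteins including Lhx2, in that of *Hand2* alone, beside 5.29%. CATCTG is one form of CANNTG, so the counts of both overlap. *Dcn*, *Lum* and *Pdgfrb* had no entry among the promoters searched.

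*Dcn* and *Lum* encode decorin and lumican, small leucine-rich proteoglycans that bind collagen fibrils, and are next to each other on chromosome 10 with 0 protein-coding genes between them. *Dcn* had log2 signals of 10.08, 9.92 and 10.64 in mutants B253, B304 and B305, against 10.62, 10.74 and 10.25 in controls B256, B267 and B302. *Lum* had signals of 4.16, 3.80 and 4.64 in the same mutants and 4.39, 4.71 and 4.51 in the same controls. For both genes, mutants B253 and B304 lay below all controls and mutant B305 lay within the control range. The log2 difference was -0.32 (standard error 0.21, 95% interval -0.79 to 0.15) for *Dcn* and -0.34 (standard error 0.21, 95% interval -0.81 to 0.13) for *Lum* (two-sided exact permutation p = 0.3 for each). Without mutant B305 the differences were -0.53 and -0.56, at unadjusted limma p of 0.0186 and 0.0116, and without mutant B304 they were -0.17 and -0.14.

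The other 14 measured genes of the small leucine-rich proteoglycan family had a median log2 difference of -0.11, and 13 of the 14 were below 0, beside 48.4% of all genes. This median was -0.05 without control B267 or control B302, -0.07 without mutant B253 and -0.17 without control B256. None of them had an unadjusted p under 0.05 from limma, and the groups overlapped for each. Several were dim: the mean levels of *Aspn*, *Ecm2*, *Epyc*, *Kera* and *Omd* lay at percentiles 3.04 to 13.4 of all genes. *Prelp*, a collagen-binding member of cartilage and other connective tissue, had a difference of -0.16 (standard error 0.13), and *Nyx*, known from the retina, one of -0.08 (standard error 0.14). For *Nyx* the brighter of 2 probe sets was used, and the other was not read on its own. The identifier of the probe set used lies among those of genes on chromosome 9, while *Nyx* is on chromosome X. Whether this probe set reads *Nyx* was not tested. *Bgn*, which encodes biglycan, the closest relative of decorin, had signals of 7.30, 7.07 and 7.79 in mutants B253, B304 and B305 and of 7.84, 7.66 and 7.32 in controls B256, B267 and B302. Mutant B305 thus lay above mutants B253 and B304 for *Bgn*, as for *Dcn* and *Lum*. *Kera* and *Epyc*, the next genes beyond *Lum* on chromosome 10, had differences of 0.02 (standard error 0.13) and -0.04 (standard error 0.14), at signals of 3.21 to 3.69.

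*Reln* encodes reelin, a large secreted glycoprotein known from the developing brain and made in liver by stellate cells. Its log2 signals were 6.50, 6.01 and 6.57 in mutants B253, B304 and B305, against 6.78, 6.64 and 6.30 in controls B256, B267 and B302. Mutant B304 lay below all controls and the other mutants lay among them. The log2 difference was -0.21 (standard error 0.19, 95% interval -0.63 to 0.21). It was -0.03 without mutant B304, -0.11 without control B256 and -0.11 with the range of mouse numbers as a block, and it was -0.32 without mutant B305 and -0.35 without control B302. The reelin receptors *Vldlr* and *Lrp8* and the adaptor *Dab1* had a median difference of 0.01 (0.01 for both receptors), and no gene of the 3 had an unadjusted p under 0.05 from limma.

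The platelet-derived growth factor receptors *Pdgfra* and *Pdgfrb* carry the main growth signal of activated stellate cells. *Pdgfra* had log2 signals of 5.70, 5.69 and 5.80 in mutants B253, B304 and B305, against 6.18, 5.71 and 5.64 in controls B256, B267 and B302. Control B256 lay above the other 5 livers, which spanned 5.64 to 5.80. *Pdgfrb* had signals of 5.15, 4.98 and 4.95 in the mutants and of 5.14, 5.09 and 5.24 in the controls, in the same order of mice, so that mutants B304 and B305 lay below all controls. The log2 difference was -0.11 (95% interval -0.47 to 0.24) for *Pdgfra* and -0.13 (95% interval -0.39 to 0.13) for *Pdgfrb*, and that of *Pdgfra* was 0.06 without control B256. The ligands *Pdgfa*, *Pdgfb*, *Pdgfc* and *Pdgfd* had differences of -0.15 to 0.06 (0.03 for *Pdgfa* and 0.06 for *Pdgfc*), none with an unadjusted p under 0.05 from limma.

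*Des* encodes desmin, an intermediate filament of muscle cells and of rodent stellate cells. Its log2 signals were 4.44, 4.30 and 4.24 in mutants B253, B304 and B305, against 4.49, 4.41 and 4.37 in controls B256, B267 and B302. The range over the 6 livers, 0.24, was the narrowest of the 10 markers, and the log2 difference was -0.10 (95% interval -0.35 to 0.16). Of the 8 other intermediate filament genes measured, 0 had an unadjusted p under 0.05 from limma. The keratins *Krt8* and *Krt18* of hepatocytes had differences of 0.00 (standard error 0.20) and -0.07 (standard error 0.16). *Gfap*, a further filament of stellate cells, had a difference of -0.32 (standard error 0.15), with overlap between the groups. *Nes*, also on the list of further stellate markers, had one of 0.10 (standard error 0.15). Of the 8 genes, 4 had a difference below 0, and the median was -0.03.

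*Hand2* and *Lhx2* encode transcription factors of stellate cells, and in mice loss of *Lhx2* leads to liver fibrosis. *Hand2* had log2 signals of 5.35, 5.35 and 5.63 in mutants B253, B304 and B305, against 5.48, 5.26 and 5.55 in controls B256, B267 and B302. *Lhx2* had signals of 5.85, 5.89 and 5.96 in the same mutants and 5.83, 5.56 and 6.15 in the same controls. Both were lowest in control B267. They were the 2 markers with a log2 difference above 0, of 0.02 (95% interval -0.29 to 0.32) for *Hand2* and 0.05 (95% interval -0.30 to 0.41) for *Lhx2*. Both differences were -0.04 with the range of mouse numbers as a block.

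**Figure D2:**
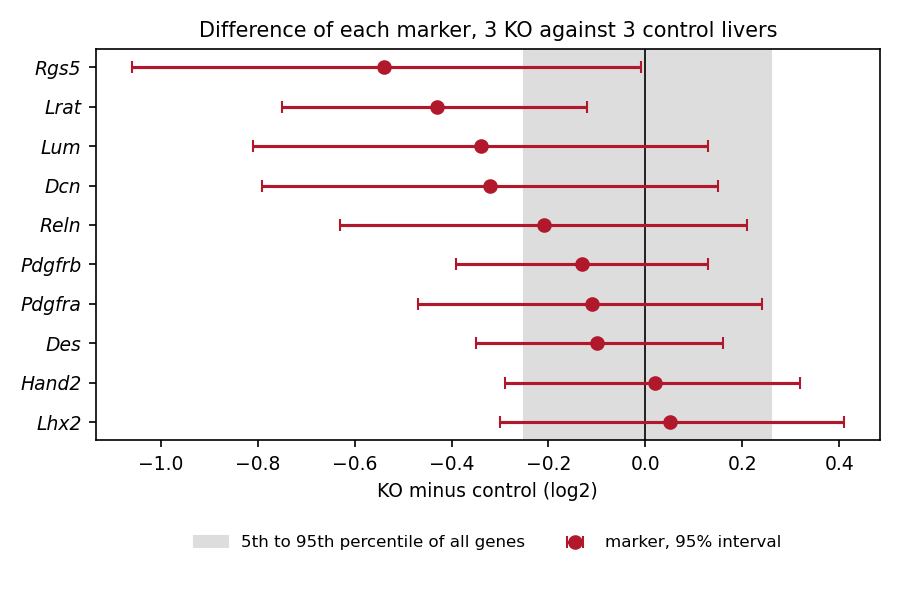
Log2 difference of each marker, 3 Lkb1KOlivad minus 3 control livers, with its 95% interval from limma, over the span of -0.25 to 0.26 that holds all genes from the 5th to the 95th percentile (gray). The intervals of *Rgs5* and *Lrat* lie below 0, and those of the other 8 markers include 0.

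The markers differed between the mice of each group. Mutant B304 had the lowest value of the 6 livers for 4 of the 10 markers (*Dcn*, *Lum*, *Reln* and *Rgs5*) and lay below all controls for 7. Mutant B305 lay within the control range for 6 markers and below all controls for 3 (*Lrat*, *Des* and *Pdgfrb*). Control B256 had the highest value for 5 markers (*Lrat*, *Reln*, *Des*, *Pdgfra* and *Rgs5*). Averaged over the 10 markers, mutants B253, B304 and B305 lay at -0.23, -0.36 and -0.04 relative to the control mean, against 0.11, -0.06 and -0.05 for controls B256, B267 and B302. Mutant B305 thus lay within the range of the controls on this average. In that mouse *Lrat* was 0.48 lower than the mean of the other 9 markers, each taken relative to its control mean, while *Lum* and *Dcn* were 0.16 and 0.17 higher. The SD was larger among the mutants than among the controls for 7 of the 10 markers. The mice fall into a lower range of numbers (B253, B256 and B267) and a higher range (B302, B304 and B305). The median difference over the markers was -0.22 within the lower range, where B253 is the only mutant, and -0.16 within the higher, where B302 is the only control. Within each range 8 of the 10 were below 0, but not the same 8. Those above 0 were *Pdgfrb* (0.04) and *Lhx2* (0.15) in the lower range, and *Dcn* (0.04) and *Pdgfra* (0.10) in the higher. The share of all genes below 0 within each range was not computed.

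Of 18 further stellate markers measured, 12 had a log2 difference below 0, beside 48.4% of all genes, with a median of -0.03. The differences of *Hgf* and *Angptl6*, which are among the 12, round to 0.00. An unadjusted limma p under 0.05 was found for 2 of the 18, both lower, beside 1.51% of all genes lower. *Ngfr*, the low-affinity neurotrophin receptor, had signals of 5.20, 4.97 and 5.07 in mutants B253, B304 and B305, against 5.45, 5.29 and 5.38 in controls B256, B267 and B302 (log2 difference -0.29, standard error 0.12). *Adamtsl2*, a secreted protein that binds fibrillin, had signals of 4.97, 5.17 and 5.11 in the mutants, against 5.36, 5.39 and 5.38 in the controls (log2 difference -0.29, standard error 0.11). Neither overlapped between the groups, where 3.7% of all genes lay lower in the mutants without overlap. Both had an adjusted p = 0.9997 in limma. *Tcf21*, a transcription factor of stellate cells, had a difference of 0.26 (standard error 0.15), the highest of the 18.

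Of 19 measured genes of activated stellate cells and myofibroblasts, 13 had a log2 difference below 0, with a median of -0.06, and 0 had an unadjusted p under 0.05 from limma. The groups did not overlap for 3 of the 19, with *Col1a2* lower and *Pdpn* and *Loxl1* higher in the mutants. Over all genes, 3.7% lay lower and 3.46% higher in the mutants without overlap. *Col1a2*, the second chain of collagen I, had signals of 5.75, 5.70 and 5.46 in mutants B253, B304 and B305, against 5.99, 6.05 and 5.76 in controls B256, B267 and B302 (log2 difference -0.30, standard error 0.13, unadjusted limma p of 0.0558). *Pdpn*, the membrane glycoprotein podoplanin, had a difference of 0.33 (standard error 0.14, unadjusted limma p of 0.0508), and *Loxl1*, a cross-linking enzyme of elastic fibers, one of 0.18 (standard error 0.12). *Fn1*, fibronectin, which hepatocytes also secrete, had a difference of 0.05 (standard error 0.14), and *Ccn2*, a matrix protein induced by Tgf-beta, one of -0.26 (standard error 0.16). *Col1a1*, the first chain of collagen I, had signals of 5.86, 6.07 and 5.76 in mutants B253, B304 and B305, against 5.94, 5.94 and 5.91 in controls B256, B267 and B302. *Col3a1* lay between 5.33 and 5.53 over the 6 livers, with a difference of 0.00 (standard error 0.12). *Acta2*, the smooth muscle actin of myofibroblasts, had signals of 4.65, 4.29 and 4.41 in the mutants, against 5.42, 4.43 and 4.74 in the controls (log2 difference -0.41, standard error 0.24), and was highest in control B256. The 12 genes of vascular smooth muscle and pericytes had a median of -0.09 and the 18 of portal fibroblasts and mesothelium one of 0.03, with 0 genes in either at an unadjusted p under 0.05 and 0 without overlap. Of the vascular genes, *Abcc9*, a subunit of the potassium channel of pericytes, had a difference of -0.32 (standard error 0.23) and the myosin kinase *Mylk* one of -0.01 (standard error 0.12). In the portal list, *Gsn*, which encodes the actin-severing gelsolin, had 0.05 (standard error 0.14) and *Gli1*, a transcription factor of hedgehog signaling, 0.04 (standard error 0.13). The 13 Tgf-beta ligands, receptors and partners had a median of -0.02 and 0 at that threshold. The receptor *Tgfbr1* and the coreceptor *Eng* had differences of -0.22 (standard error 0.13) and -0.11 (standard error 0.15), with overlap. All mutants lay below all controls for 3 of the 13, *Tgfbr2* (-0.10), *Tgfbr3* (-0.21) and *Ltbp4* (-0.21), beside 3.7% of all genes. All mutants lay above all controls for 0, beside 3.46% of all genes. Of the 13, 7 had a difference below 0. The highest difference was that of *Smad7*, 0.24 (standard error 0.14), with overlap.

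The retinoid pathway, in which *Lrat* acts, had 19 other genes measured, with a median log2 difference of -0.02. The carriers *Rbp4* and *Ttr*, which hepatocytes secrete to transport retinol, had differences of -0.01 (standard error 0.11) and 0.00 (standard error 0.13). *Rarb*, a retinoic acid receptor whose own gene is induced by retinoic acid, was the 1 gene of the 19 with an unadjusted p under 0.05. Its signals were 4.93, 4.81 and 5.20 in mutants B253, B304 and B305, against 5.36, 5.69 and 5.17 in controls B256, B267 and B302, so that mutant B305 lay just above control B302. The log2 difference was -0.43 (standard error 0.17). *Rara*, a further retinoic acid receptor, was the 1 gene of the 19 without overlap, at -0.21 (standard error 0.12). *Cyp26a1*, the cytochrome that breaks down retinoic acid and is a further target of it, was picked out after its values were seen. It had signals of 5.80, 5.68 and 5.74 in the mutants, against 7.73, 6.70 and 5.41 in the controls. The mutant livers lay within 0.12 of each other, while control B302 lay below them and control B256 far above (log2 difference -0.87, standard error 0.47). Of the 19 genes, 11 had a difference below 0, beside 48.4% of all genes. *Dhrs3*, *Cyp26b1* and *Stra6* had differences of -0.02, -0.05 and -0.08, *Rdh10* and *Aldh1a1* of 0.09 and 0.11, and *Rdh11* of -0.48 (standard error 0.26), with overlap. Whether retinoic acid signaling differed between the groups was not tested.

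The promoters of *Rarb* and *Cyp26a1* are shown because each window holds the direct repeat to which retinoic acid receptors bind. The repeat searched was GTTCA followed by AGTTCA after 5 further bases, on either strand, a form chosen from what is known of these genes, and it is in capitals. The sequences run 5′ to 3′ in the direction of the gene over 300 bases, 250 before to 50 after a start given by the promoter table (RefSeq, GRCm38.p6), at chr14:16575427-16575726, minus strand, for *Rarb* and chr19:37697558-37697857, plus strand, for *Cyp26a1*. For both genes this start lies inside the gene as annotated, and for *Rarb* far from its outer 5′ end, so the window is not the only promoter.
Rarb: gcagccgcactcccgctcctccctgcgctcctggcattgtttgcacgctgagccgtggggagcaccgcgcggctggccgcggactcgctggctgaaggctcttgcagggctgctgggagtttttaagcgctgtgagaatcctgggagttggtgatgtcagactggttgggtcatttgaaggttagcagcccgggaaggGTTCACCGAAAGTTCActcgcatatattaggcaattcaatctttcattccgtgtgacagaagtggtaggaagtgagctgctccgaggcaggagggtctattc
Cyp26a1: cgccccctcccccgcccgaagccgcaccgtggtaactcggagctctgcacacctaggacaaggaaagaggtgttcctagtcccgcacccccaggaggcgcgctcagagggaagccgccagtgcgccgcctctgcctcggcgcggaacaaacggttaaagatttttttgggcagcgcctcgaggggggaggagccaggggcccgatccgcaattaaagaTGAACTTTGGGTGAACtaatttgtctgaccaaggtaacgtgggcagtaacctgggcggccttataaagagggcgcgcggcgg
This form of the repeat was found in 11 of the 32851 promoters searched, 0.0335%, and in 0 of those of the 7 markers with an entry, *Lrat* among them. Other forms of the repeat were not searched, so these counts say nothing about them. A match describes the letters of this window and does not show that the receptor binds there.

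**Figure D3:**
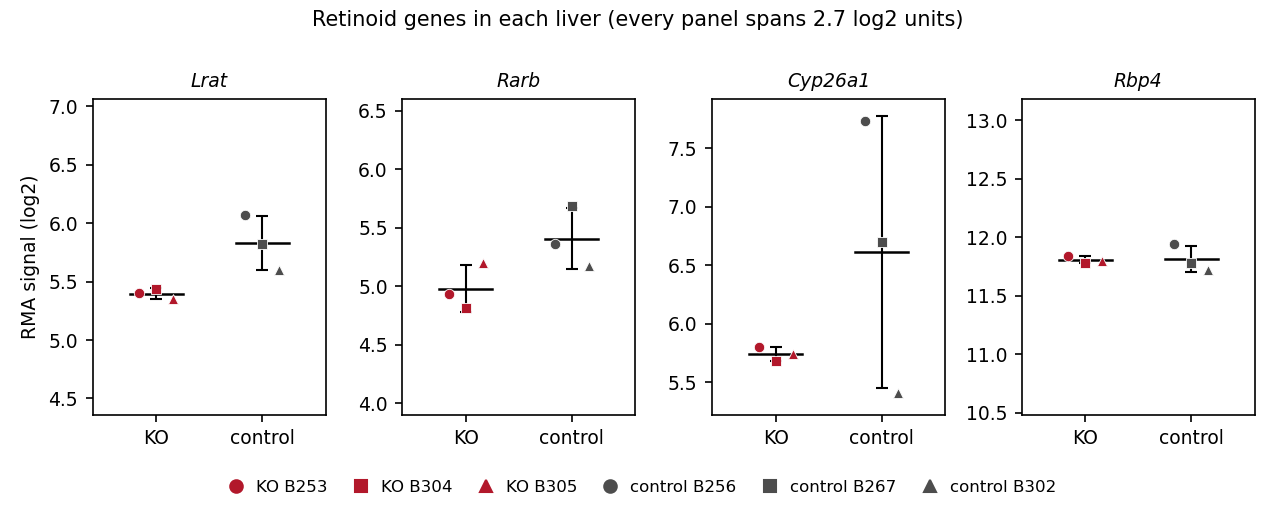
RMA signal (log2) of *Lrat*, *Rarb*, *Cyp26a1* and *Rbp4* in each liver, Lkb1KOlivad (KO, red) left of control (gray), with 1 symbol per mouse and a black bar and line for each group's mean and SD. Every panel spans the same range. The mutant values of *Cyp26a1* lie between 5.68 and 5.80 and the control values between 5.41 and 7.73, and *Rbp4* lies between 11.72 and 11.94 over the 6 livers.

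*Rgs5* belongs to the R4 class of Rgs proteins, of which 9 others were measured. Their median log2 difference was -0.05. *Rgs3* had signals of 5.57, 5.27 and 5.44 in mutants B253, B304 and B305, against 5.75, 5.59 and 6.25 in controls B256, B267 and B302, without overlap (log2 difference -0.44, standard error 0.18). These values are of the brighter of its 2 probe sets, and the other was not read on its own. The identifier of the probe set used lies among those of genes on chromosome X, while *Rgs3* is on chromosome 4. Whether this probe set reads *Rgs3* was not tested. *Rgs8* had a difference of 0.40 (standard error 0.17), with control B302 within the range of the mutants. Both had an unadjusted p under 0.05, with an adjusted p = 0.9997 from limma.

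Markers of endothelial cells, macrophages and hepatocytes were read in the same livers. The 16 genes of sinusoidal endothelial cells had a median log2 difference of -0.19, with 14 below 0, 0 at an unadjusted p under 0.05 from limma and 1, *Cdh5*, without overlap. This median was -0.02 without control B256 and -0.07 with the range of mouse numbers as a block. Their mean level was 6.53 to 6.68 in the mutant livers and 6.62 to 6.97 in the control livers. *Mrc1* and *Lyve1*, endocytic receptors of these cells, had differences of -0.23 (standard error 0.24) and -0.38 (standard error 0.23). The 12 genes of Kupffer cells and macrophages also had a median of -0.19, with 10 below 0 and 0 at that threshold, and a mean level of 6.80 to 7.17 in the mutant livers and 6.80 to 7.37 in the control livers. This median was -0.06 without mutant B304, -0.11 without control B256, -0.12 without control B267, -0.35 without control B302 and -0.08 with the block. *Vsig4*, a complement receptor of Kupffer cells, had a difference of -0.18 (standard error 0.17). The defining genes *Stab2* and *Clec4f* had signals of 7.24 to 8.01 and of 8.01 to 9.23 over the 6 livers. Control B256 was highest of the 6 livers for the means of the 10 markers, the endothelial list and the Kupffer list. Mutant B304 was lowest for the mean of the 10 markers and, with control B302, for that of the Kupffer list. The 16 hepatocyte markers had a median difference of 0.02. Of these, *G6pc*, the glucose-6-phosphatase of gluconeogenesis, had a difference of 0.56 (standard error 0.20, unadjusted p = 0.0197 from limma), with all mutants above all controls. The hepatocyte mean level was 11.59 to 11.81 in the mutant livers and 11.48 to 11.76 in the control livers. The 6 biliary genes measured had a median of 0.02, with 0 at an unadjusted p under 0.05 from limma, *Sox9* at 0.18 (standard error 0.19), *Krt7* at 0.00 (standard error 0.12) and 1, *Epcam*, without overlap at -0.21 (standard error 0.13). The part of cell composition in the differences of the 10 markers was not tested.

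**Figure D4:**
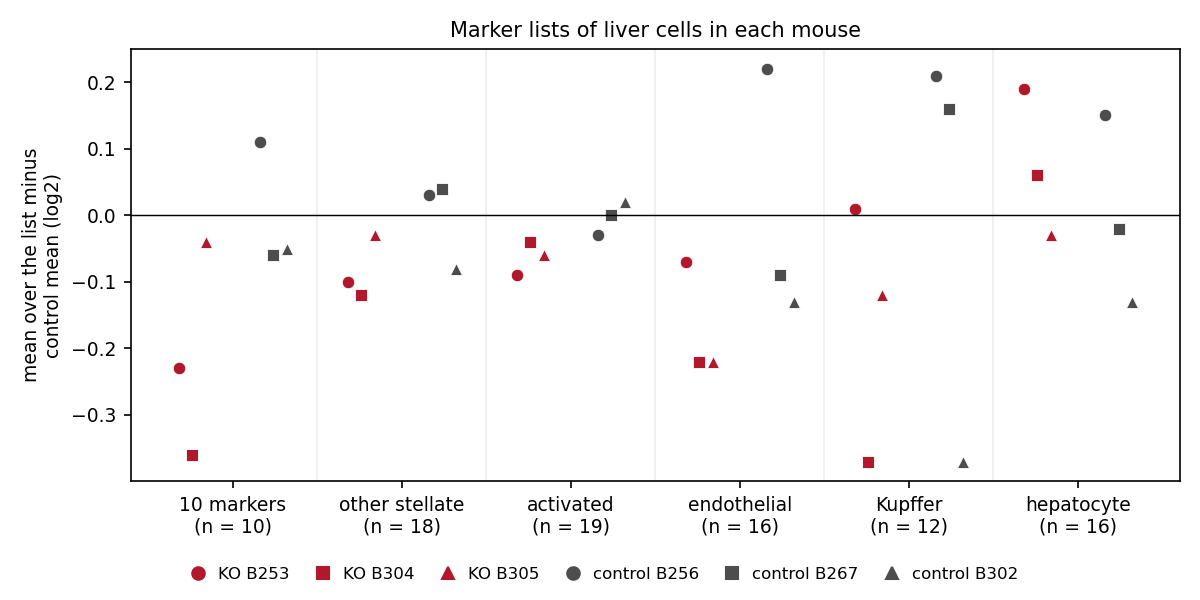
Mean log2 signal of the genes of a list, by mouse and relative to the control average, with the number of measured genes below each list, Lkb1KOlivad mice (KO, red) left of controls (gray). For the 10 markers the mutants lie at -0.23, -0.36 and -0.04, and control B256 lies highest for the 10 markers, the endothelial list and the Kupffer list.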

How the data were processed

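The data are arrays of liver RNA from 3 Lkb1KOlivad and 3 control mice, 1 per mouse, grouped by the genotype label. The values are log2 RMA signals that the authors computed before deposit (background correction, normalization between arrays and summary into probe sets). RMA and Partek are named in the labels, Expression Console and BRB-ArrayTools in the methods. Versions and the genome build were not given in the sources used here. NuGEN kits are named in the labels for amplification and labelling, and an Affymetrix kit in the methods. RMA shrinks differences of dim probe sets, and signals of different probe sets are not comparable as amounts.

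The probe set identifiers of the values match an older array generation than the one named in the methods, and its annotation was used. In it 21789 of 35556 probe sets had 1 symbol, 1621 had several and 12146 none. Symbols were updated by gene identifier (21698 found), and the brightest probe set per gene gave 19938 genes, with no intensity filter. Groups were compared by lmFit and eBayes of limma 3.58.1 (R 4.3.3, two-sided), adjusted over all genes by Benjamini-Hochberg, with a threshold of 0.05, and single genes also by the exact permutation test. The procedure was tested on simulated data. The number of arrays limits the precision. Separate mice are the replicates. Markers and gene lists were chosen with earlier results of these data known, so lists are described by counts and medians without a test.

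All 10 markers are named, and from each list the genes at an unadjusted p under 0.05 (up to 4) or, with none, the 2 brightest. Genes that define other cells are named too. Further genes of the lists were picked after their values were seen. The 14 alternatives were leaving out each mouse, quantile normalization, array weights, centring on array medians, an intensity trend with robust estimation, leaving out dim genes, averaged probe sets, the range of mouse numbers as a block and the methods' t-test. Of the list entries, 9 were not analysed here, as no probe set gave them alone. Promoters came from a RefSeq table for GRCm38.p6, and those on chromosome 18 were left out. Figures were drawn with matplotlib 3.10.9.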

Additional observations from a re-analysis of the deposited data

How the results depend on the processing

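The median over the 10 markers stayed below 0 in all 14 alternatives, between -0.28 and -0.10, moving by less than the spread between mice, and no marker reached an adjusted p under 0.05 in any of them. *Lrat* kept an unadjusted p under 0.05 in all 14, at -0.55 to -0.31, and *Rgs5* in 6. The count of markers lower at that threshold was 1 with array weights, with arrays centred on their medians, without the dim genes and in the methods' t-test, and 1 to 4 when a mouse was left out (4 without mutant B305). Without the dim genes, which removes *Lum*, *Des* and *Pdgfrb*, 5 of the remaining 7 markers were below 0. When a mouse was left out, *Pdgfra* ranged from -0.21 to 0.06 and turned without control B256, *Hand2* from -0.08 to 0.08 and turned without mutant B305 and without control B267 (-0.07), and *Lhx2* from -0.09 to 0.20 and turned without control B267. With the range of mouse numbers as a block *Hand2* and *Lhx2* turned too (-0.04 each). Over all genes, the count at an adjusted p under 0.05 was 0 in the methods' t-test and 0 to 1 when a mouse was left out, being 0 without any mouse other than control B302. At an unadjusted p under 0.05, 134 genes were lower and 152 higher without the dim genes, since that fit tests fewer genes, and 589 were higher with the range of mouse numbers as a block. Leaving out a mouse gave 189 to 444 genes lower and 199 to 521 higher, with the lowest counts without mutant B304 and 521 higher without control B256. The cause of the other shifts was not tested. No paired analysis was possible because the mouse numbers of the labels do not match between the groups. Leaving out a mouse moved the medians of the endothelial list between -0.28 and -0.02, of the Kupffer list between -0.35 and -0.06, of the proteoglycan family between -0.17 and -0.05 and of the neutrophil list between 0.06 and 0.31. Of the 10 markers, *Lum*, *Des* and *Pdgfrb* had signals under the median of all genes, 5.26.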

Other observations

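Lymphocyte genes, which belong to none of the comparisons above, held both directions. Of 9 measured, *Nkg7*, a granule protein of cytotoxic cells, had signals of 4.70, 4.55 and 4.80 in mutants B253, B304 and B305, against 4.91, 5.80 and 4.97 in controls B256, B267 and B302. *Cd79a*, of the B cell receptor, had 3.89, 4.28 and 4.16 in the mutants, against 3.75, 3.44 and 3.88 in the controls, and the T cell receptor chain *Cd3e* had 5.53 to 5.70 in the mutants and 5.80 to 5.85 in the controls. With *Cd3d*, a further T cell receptor chain, at 3.42 to 3.58 in the mutants and 3.60 to 3.75 in the controls, 4 of the 9 genes did not overlap, 3 lower and 1 higher in the mutants, where all genes gave 3.7% and 3.46%. The adjusted p from limma was 0.9997 for each. The 8 neutrophil genes had a median log2 difference of 0.18, which was 0.06 without mutant B253, 0.07 without control B302 and 0.31 without mutant B305, and 0 at an unadjusted p under 0.05 from limma, with *S100a9* at 7.81, 7.64 and 7.04 in the mutants and 6.82, 7.82 and 6.40 in the controls. *Retnlg*, a secreted protein of neutrophils, had a difference of 0.20 (standard error 0.45), and *Csf3r*, the receptor for granulocyte colony-stimulating factor, was the 1 of the 8 without overlap (0.15, standard error 0.11).

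The 12 genes whose pattern over the 6 livers was most like the mean of the 10 markers had a Pearson r of 0.961 to 0.996. They were *Pdlim1*, *Tekt4*, *Tlr7*, *Zbtb10*, *Dhx36*, *Gnb5*, *Klk1b27*, *Crygn*, *Rnaseh1*, *Gimap6*, *Mrpl48* and *Erg*. The r describes 6 arrays that hold both groups and was taken from the top of 19938 genes, so values of this size say little. *Pdlim1*, a protein of the actin cytoskeleton, had signals of 8.93, 8.82 and 9.07 in mutants B253, B304 and B305, against 9.16, 9.05 and 9.07 in controls B256, B267 and B302. These values are of the brighter of its 2 probe sets. The identifier of that probe set lies among those of genes on chromosome 5, while *Pdlim1* is on chromosome 19. Whether it reads *Pdlim1* was not tested. *Erg*, a transcription factor of endothelial cells, had 5.66, 5.52 and 5.88 in the mutants, against 5.96, 5.79 and 5.92 in the controls. None of the 12 is on the lists of stellate cell, fibroblast or smooth muscle genes used here.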
